A study of Mus musculus with 6 samples.

Results

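The matrix metalloproteinases (MMPs) and their tissue inhibitors (TIMPs) were examined as a family of 10 genes in NIH3T3, a line of fibroblasts grown from mouse embryos. The 10 members were taken by gene name from the deposited tables, which list 55401 genes, and each name matched 1 row. They comprise the secreted enzymes Mmp2, Mmp3, Mmp9, Mmp10, Mmp13 and Mmp19, the membrane-bound enzyme Mmp14, and the inhibitors Timp1, Timp2 and Timp3. All cells were wild type per the labels, where 3 libraries came from cells given IPRN and 3 from cells given the solvent DMSO. Angelicin, a furanocoumarin found in plants, appears in the title of the series. The design text says that hydrogen peroxide and TGF-β were used to push the cells towards a state resembling cancer-associated fibroblasts. The labels give no dose or time and do not say whether the DMSO cells also received these stimuli.

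MMPs are zinc-dependent proteases made as inactive precursors and known for cutting collagens, fibronectin and proteoglycans. Most are released from the cell, whereas Mmp14 is anchored in the plasma membrane, where it cuts collagen and, together with the Timp2 protein, helps to activate the Mmp2 precursor. TIMPs are secreted proteins that block the active site of the enzymes. In fibroblasts several MMP genes are known to be switched on by AP-1, the factor made of Fos and Jun proteins. The measurements here are transcript levels, and neither protein nor enzyme activity was measured.

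In edgeR, transcripts of 3 secreted enzymes fell under IPRN, that of the membrane-bound enzyme rose, and no inhibitor passed the test. DESeq2 called Mmp19 lower and Mmp14 and Timp2 higher. It gave no adjusted p to Mmp3, Mmp10 and Mmp13. Mmp19 fell to 0.637 of its DMSO level, and Mmp10 and Mmp13 fell to a few counts per library. In bulk RNA, fewer cells with a transcript and less of it per cell cannot be told apart. Mmp14 was 1.23-fold higher. Mmp10, Mmp13 and Mmp14 were each called in 1 of the 6 fits with a library left out, and Mmp19 in all 6. Without DMSO 1 and IPRN 3 together 0 members were called in edgeR. In that fit 5 members had an unadjusted p under 0.05. The share of all genes at that p in that fit is not given, so this count is not read as support. Calls over all tested genes numbered 938 with all libraries, 133 to 1047 with 1 left out and 53 without both. Mmp2 and Timp1, the most abundant enzyme and inhibitor transcripts, did not pass. Of the 10 members, all of which were tested, 4 were called at an adjusted p under 0.05 in edgeR's quasi-likelihood test (1 higher, 3 lower). Over all 17159 genes tested, 5.47% were called, 2.46% higher and 3.01% lower. The members' count includes Mmp10 and Mmp13, which passed the filter on low counts through the DMSO libraries, where they were high, so it is a description and is not read against this share. The median log2 fold change of the members was 0.08, against 0.0016 for all tested genes.

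Total counts ran from 60320282 to 78629444 per library, and 3 counts corresponded to 0.0382 to 0.0497 CPM, the count scaled to a common library size by TMM. Fibroblast markers were abundant in every library (8 of 8 detected, summing to 15012 to 18434 CPM under IPRN and 15202 to 16095 CPM in DMSO). Col1a1 and Col1a2 gave most of these sums. With all libraries edgeR called 2 of the 8 lower, Pdgfra (adjusted p = 0.000351) and Prrx1 (0.0397), and 0 higher. Over all tested genes, 3.01% were called lower and 2.46% higher. Pdgfra shares exon sequence with other gene models. IPRN 3 stood apart in macrophage markers, which summed to 133 CPM there, 98.0 CPM of it from Lyz2, against 14.8 and 15.3 CPM in the other IPRN libraries and 3.25 to 14.3 CPM in DMSO. Hepatocyte markers summed to 2.81 CPM in IPRN 3 and 3.01 CPM in DMSO 1, against 27.6 and 79.1 CPM in the other IPRN libraries and 23.8 and 41.7 CPM in the other DMSO libraries. Of 6 neutrophil markers, Elane, Mpo and Ngp were at 0 counts in every library, and the list summed to 0.481 to 1.88 CPM under IPRN and 0.200 to 2.70 CPM in DMSO. The 6 epithelial markers summed to 0.186 to 2.67 CPM under IPRN and 0.449 to 1.54 CPM in DMSO. The 5 endothelial markers summed to 1.43 to 2.74 CPM under IPRN and 3.15 to 3.40 CPM in DMSO. The part of these markers in the members' values was examined only by fits that drop or mark libraries. With a model term marking libraries rich in hepatocyte transcripts, edgeR still called Mmp19 (adjusted p = 0.0107) and Mmp14 (0.0473). Mmp10 (0.0756) and Mmp13 (0.0631) were not called with it. Outside the marker lists, adjusted p-values without DMSO 1 and IPRN 3 together are given for named genes whose call they changed.

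Mmp10 and Mmp13, which fell to near 0, share a promoter feature with Mmp3, which did not pass the test. The stretches printed were picked with the values known, so this feature is described and is not support for the falls. The stretches below are the 120 bases before the annotated start site of Mmp13, Mmp3 and Mmp10, with that of Mmp14 for contrast, because Mmp14 was called in the opposite direction to Mmp10 and Mmp13. They come from RefSeq on GRCm38.p6, run 5′ to 3′ on the plus strand, and capitals mark matches to the AP-1 letters TGANTCA, which read the same on both strands. Mmp13 lies at chr9:7272394-7272513, Mmp3 at chr9:7445702-7445821, Mmp10 at chr9:7502222-7502341 and Mmp14 at chr14:54431478-54431597.
Mmp13: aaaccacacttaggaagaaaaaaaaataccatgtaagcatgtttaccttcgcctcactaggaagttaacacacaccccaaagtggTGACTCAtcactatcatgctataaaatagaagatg
Mmp3: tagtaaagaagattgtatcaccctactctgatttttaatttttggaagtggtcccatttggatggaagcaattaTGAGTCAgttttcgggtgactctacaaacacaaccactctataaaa
Mmp10: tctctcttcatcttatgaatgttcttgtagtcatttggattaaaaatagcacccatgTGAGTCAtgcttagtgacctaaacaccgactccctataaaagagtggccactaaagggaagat
Mmp14: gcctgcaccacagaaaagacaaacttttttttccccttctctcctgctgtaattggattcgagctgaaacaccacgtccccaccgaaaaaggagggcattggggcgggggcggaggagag

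Promoters of 7 of the 10 members were matched by symbol (Mmp3, Mmp10, Mmp13, Mmp14, Timp1, Timp2 and Timp3). None was matched for Mmp2, Mmp9 or Mmp19. In the 250 bases before the start site, 3 of the 7 held TGANTCA, against 6.75% of 32851 mouse promoters. These 3 genes lie in the same run of MMP genes on chromosome 9, so their promoters may not be independent of one another. The match began 35 bases before the start site in Mmp13, 46 bases before it in Mmp3 and 63 bases before it in Mmp10. The same 3 promoters held TATAAA on the plus strand, found in 7.59% of all promoters, and Mmp14 and the TIMPs held neither. The letters AGGAAG, a binding motif of the PEA3 type of ETS factor, were searched on both strands and occurred in Mmp13, Mmp3, Mmp14, Timp1 and Timp3, and in 29.5% of all promoters. A match does not show that a factor was bound, and the absence of a match covers only these letters in this window. Whether AP-1 had a part in the members' values was not tested.

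**Figure D1:**
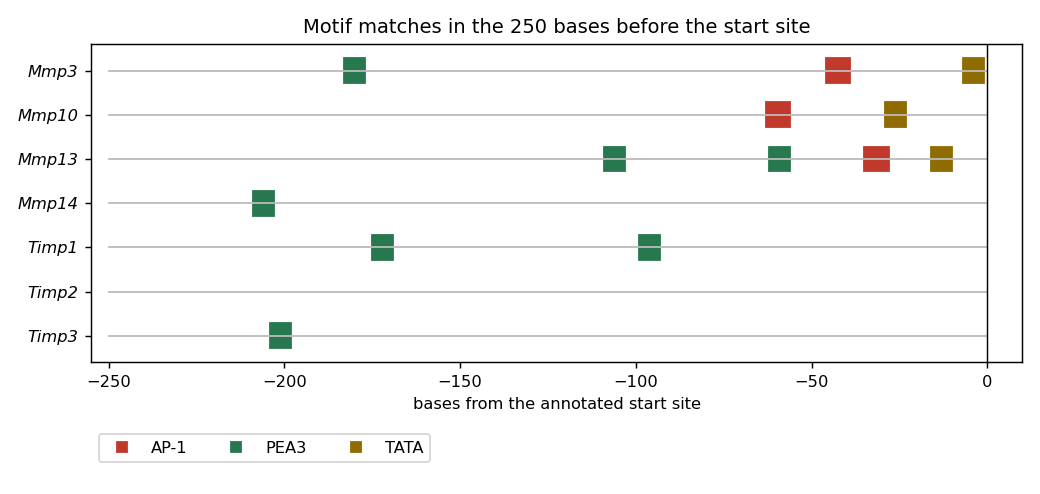
Positions of matches to the AP-1, PEA3 and TATA letters (coloured boxes) in the 250 bases before the annotated start site of 7 members, with distance from the start site in bases on the x axis. Boxes for AP-1 appear in Mmp3, Mmp10 and Mmp13, 46, 63 and 35 bases before the start site, and in none of the other 4.

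Mmp13 (ENSMUSG00000050578, chromosome 9 from 7272514 to 7283331, plus strand) encodes a collagenase that cuts fibrillar collagen. It had 4, 0 and 8 counts in IPRN 1, 2 and 3, against 65, 100 and 110 counts in DMSO 1, 2 and 3, or 0.0561, 0 and 0.124 CPM against 1.08, 1.37 and 1.40 CPM. All IPRN libraries lay below all DMSO libraries. The fitted log2 fold change was -4.41 ± 0.89 (SE, n = 3 each), with an adjusted p of 0.0400 in edgeR. As a ratio of summed rates, DMSO was 22.8-fold above IPRN (95% exact interval 12.8 to 44.7, counting error only). Low counts in these tables fell on multiples of 4 more often than an even spread would give, so the interval was also taken on counts divided by 4, where it ran from 7.51 to 114.

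Mmp10 (ENSMUSG00000047562, chromosome 9 from 7502352 to 7510240, plus strand) encodes a stromelysin, a protease with many matrix substrates. It had 4, 0 and 0 counts in IPRN 1, 2 and 3, against 72, 32 and 82 counts in DMSO 1, 2 and 3. The groups did not overlap, and DMSO 2 was the lowest of its group. The fitted log2 fold change was -5.44 ± 1.14 (SE, n = 3 each, adjusted p = 0.0433 in edgeR), a value that depends on the prior count of the fit and ran from -8.97 (without IPRN 1) to -4.86 with 1 library left out. As a ratio of summed rates, DMSO was 46.3-fold above IPRN, with a 95% interval of 17.8 to 172 on the deposited counts and 7.82 to 1847 on counts divided by 4.

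Both genes passed the filter on low counts through the DMSO libraries, where they were high, so a difference was built into their being tested. Each was called in 1 of the 6 fits with a library left out, Mmp10 without IPRN 1 (adjusted p from 0.0280 to 0.151 over the 6) and Mmp13 without IPRN 2 (0.0384 to 0.148). Both also missed the threshold without an expression filter, at 0.0599 for Mmp10 and 0.0557 for Mmp13. Without DMSO 1 and IPRN 3 together the adjusted p was 0.244 for Mmp10, at a log2 fold change of -4.67, and 0.164 for Mmp13, at -5.57.

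Mmp3 (ENSMUSG00000043613, chromosome 9 from 7445822 to 7455975, plus strand) encodes another stromelysin, which also activates other MMP precursors. It had 12, 34 and 26 counts in IPRN 1, 2 and 3, against 59, 58 and 57 counts in DMSO 1, 2 and 3. The groups did not overlap, as was the case for 29.6% of all tested genes. The log2 fold change of -1.28 ± 0.47 (SE) did not pass (adjusted p = 0.173 in edgeR).

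Mmp3, Mmp10 and Mmp13 belong to a run of 10 MMP genes within 427072 bases of chromosome 9 (7272514 to 7699585, coordinates as deposited, which match GRCm38). In 5 of these 10 (Mmp1a, Mmp1b, Mmp7, Mmp20 and Mmp27) every library had 0 counts, which allows up to 3 counts in each if counts are single reads, and more if they come in steps of 4. Among the 15 other MMP and TIMP genes with a promoter in RefSeq, 5 held the AP-1 letters: Mmp1a, Mmp1b, Mmp7 and Mmp20, all at 0 counts, and Mmp12, at the second of its start sites. Mmp12, the macrophage elastase gene, had 15, 25 and 20 counts under IPRN and 0, 37 and 24 counts in DMSO. Mmp8, a collagenase gene of neutrophils, had 6, 10 and 19 counts under IPRN and 0, 4 and 11 counts in DMSO. Mmp12 did not pass (adjusted p = 0.986 in edgeR) and Mmp8 was too low to be tested.

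Mmp19 (ENSMUSG00000025355, chromosome 10 from 128790910 to 128800824, plus strand) encodes a secreted protease that cuts basement membrane proteins. It measured 43.1, 42.7 and 45.9 CPM in IPRN 1, 2 and 3, against 69.1, 66.6 and 71.2 CPM in DMSO 1, 2 and 3. The groups were far apart relative to their spread, with 43.9 ± 1.74 CPM under IPRN and 69.0 ± 2.25 CPM in DMSO (SD, n = 3 each). The log2 fold change was -0.65 ± 0.058 (SE), with an adjusted p of 0.00285 in edgeR. The call held in all 6 fits with a library left out (0.00701 to 0.0250). Without DMSO 1 and IPRN 3 together, the libraries low in hepatocyte markers, the log2 fold change was -0.69 and the adjusted p 0.0836, and IPRN 3 alone stood at -0.59 relative to DMSO 1. Mmp19 shares exon sequence with the antisense model Gm47093 and with Tmem198b on the other strand, and the protocol describes no step that marks strand, so its value is uncertain. Tmem198b itself measured 24.8, 21.1 and 25.5 CPM under IPRN and 27.4, 22.4 and 22.6 CPM in DMSO (adjusted p = 0.950), and Gm47093 had at most 28 counts in any library.

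**Figure D2:**
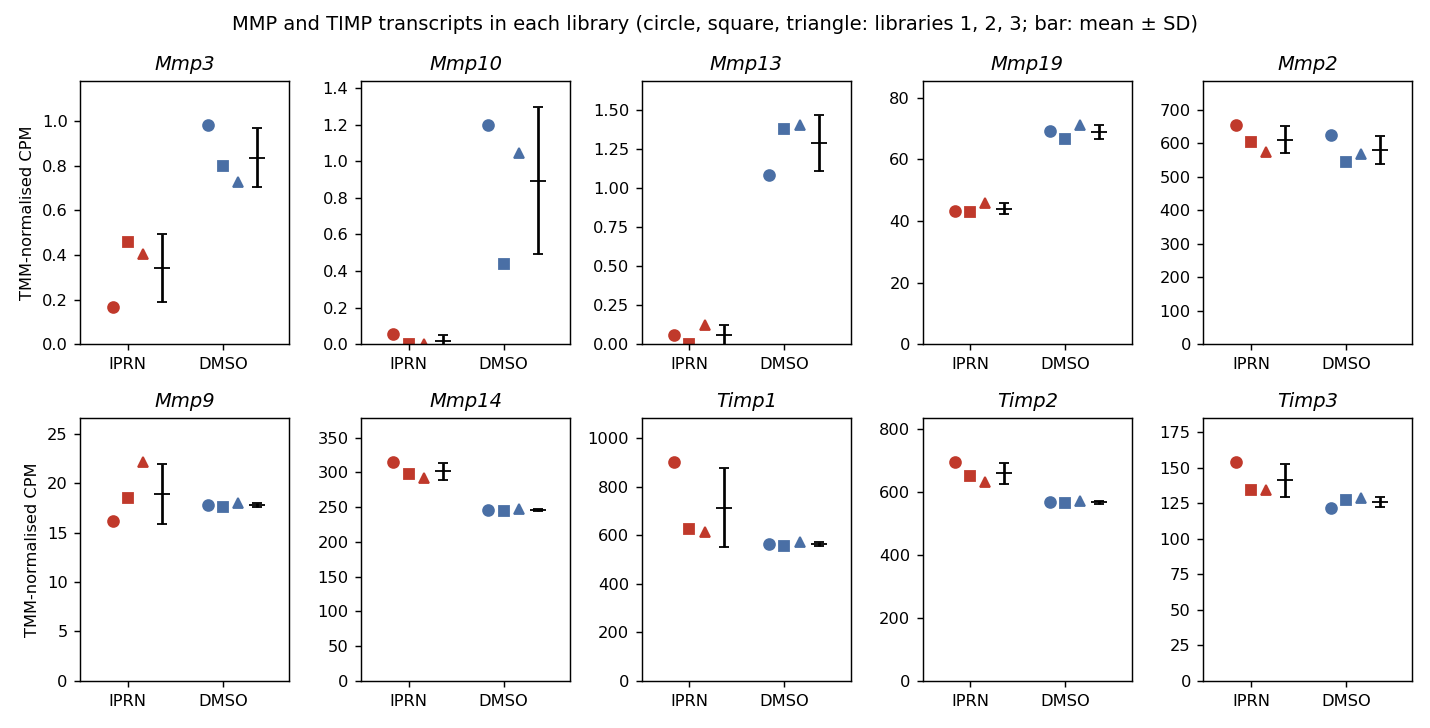
TMM-normalised CPM of the 10 members in each library on linear axes from 0, IPRN left of DMSO, with the mean and SD beside each group (SD bars that reach below 0 are clipped at the axis). All 3 IPRN libraries lie below the DMSO libraries for Mmp3, Mmp10, Mmp13 and Mmp19 and above them for Mmp14, Timp1, Timp2 and Timp3, while Mmp2 and Mmp9 overlap.

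Neither gelatinase gene passed the test. Mmp2 (chromosome 8 from 92827291 to 92853420, plus strand) encodes the gelatinase made constitutively by fibroblasts. It measured 655, 603 and 574 CPM in IPRN 1, 2 and 3, against 626, 544 and 567 CPM in DMSO 1, 2 and 3. The groups overlapped, and the log2 fold change was 0.08 ± 0.073 (SE, adjusted p = 0.619 in edgeR).

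Mmp9 (chromosome 2 from 164940780 to 164955850, plus strand) encodes the inducible gelatinase, which macrophages and neutrophils also make. It measured 16.16, 18.49 and 22.17 CPM in IPRN 1, 2 and 3, against 17.81, 17.57 and 18.01 CPM in DMSO 1, 2 and 3. The highest value was that of IPRN 3, the library with the most macrophage transcripts. The log2 fold change was 0.09 ± 0.12 (SE, adjusted p = 0.751 in edgeR), and without IPRN 3 it was -0.04. The DMSO libraries spread by 0.219 CPM (SD) and the IPRN libraries by 3.03 CPM.

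Mmp14, the membrane-bound collagenase gene (ENSMUSG00000000957, chromosome 14 from 54431612 to 54441265, plus strand), went the other way. It measured 315, 298 and 291 CPM in IPRN 1, 2 and 3, against 245, 245 and 248 CPM in DMSO 1, 2 and 3. Every IPRN library exceeded every DMSO library, and IPRN 1 was the highest. The log2 fold change was 0.29 ± 0.047 (SE), with an adjusted p of 0.0214 in edgeR. The size stayed between 0.26 and 0.31 with any library left out, but the call held in 1 of these 6 fits, that without IPRN 1 (adjusted p from 0.0133 to 0.109). It also missed the threshold without DMSO 1 and IPRN 3 together (0.208), where the log2 fold change was 0.31. Over all 14 alternatives run, including these, Mmp14 was called in 7. Among them were DESeq2 (adjusted p = 0.000309) and edgeR with a term for libraries rich in hepatocyte transcripts (0.0473).

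**Figure D3:**
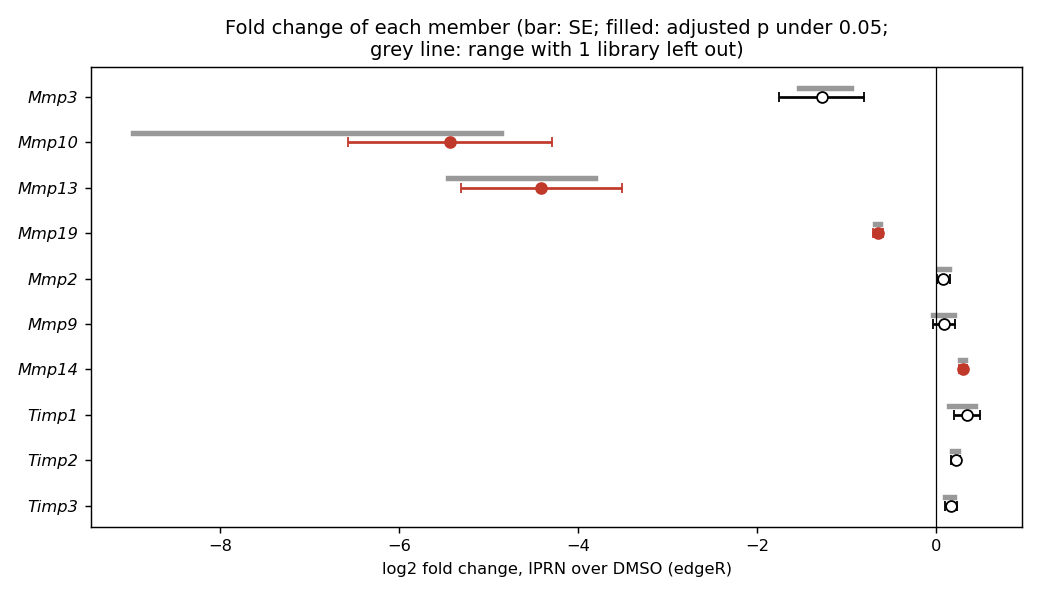
Log2 fold change of IPRN over DMSO for each member from edgeR, with the SE as a bar, filled symbols for an adjusted p under 0.05, and a grey line for the range over the 6 fits with 1 library left out. Mmp10, Mmp13 and Mmp19 are called lower, Mmp14 is called higher at 0.29, and the grey line of Mmp9 crosses 0.

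The secreted enzymes were set against Mmp14 within each library by the log2 ratio of their counts, with 2 counts added to each. For Mmp19 this ratio was -2.87, -2.80 and -2.67 in IPRN 1, 2 and 3, against -1.83, -1.88 and -1.80 in DMSO 1, 2 and 3, a difference of -0.94. For Mmp13 the ratio averaged -12.1 ± 1.29 under IPRN and -7.56 ± 0.19 in DMSO (SD, n = 3 each), and for Mmp10 it averaged -12.8 ± 0.84 and -8.18 ± 0.75. The difference for Mmp3 was -1.60.

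Mmp2, whose own level overlapped between groups, was also lower relative to Mmp14, at 1.02 ± 0.038 under IPRN and 1.23 ± 0.10 in DMSO. The Mmp9 ratio overlapped, at -4.00 ± 0.28 under IPRN and -3.79 ± 0.011 in DMSO. All 6 ratios share Mmp14 as denominator, and its own log2 fold change of 0.29 lowers each of them. They are therefore not 6 separate results. Mmp2 and Mmp9 themselves had log2 fold changes of 0.08 and 0.09, so their lower ratios come from Mmp14. In two-sided exact permutation tests, p was 0.1 for 5 of these 6 ratios, the smallest that 3 libraries against 3 allow, and 0.4 for Mmp9. Adjusted over the 8 ratios computed, including those to TIMPs below, these became 0.114 and 0.4, and no ratio could have passed 0.05 in this design.

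All IPRN libraries lay above all DMSO libraries for the 3 inhibitor genes, as they did for 14.9% of all tested genes. None of the 3 passed in edgeR, where 2 had an unadjusted p under 0.05, as did 22.0% of all tested genes. DESeq2 called 1 of them, Timp2, and 1908 of 27168 genes in all. Timp1 (ENSMUSG00000001131, chromosome X from 20870166 to 20874735, plus strand), the inhibitor gene most induced by growth factors and cytokines, measured 904, 624 and 614 CPM in IPRN 1, 2 and 3, against 564, 556 and 571 CPM in DMSO 1, 2 and 3. IPRN 1 alone stood far above the rest. The log2 fold change of 0.34 ± 0.15 (SE, adjusted p = 0.233 in edgeR) came to 0.14 without IPRN 1 (adjusted p = 0.0530).

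Timp2 (ENSMUSG00000017466, chromosome 11 from 118301069 to 118355740, minus strand), which blocks Mmp2 and also takes part in its activation by Mmp14, measured 696, 651 and 630 CPM under IPRN, against 567, 563 and 573 CPM in DMSO. Its log2 fold change was 0.22 ± 0.050 (SE) at an adjusted p of 0.0580 in edgeR, and the adjusted p was 0.0315 without IPRN 1. Timp3 (ENSMUSG00000020044, chromosome 10 from 86300372 to 86349506, plus strand), an inhibitor that binds the matrix and also blocks ADAM proteases, measured 154, 135 and 134 CPM under IPRN, against 122, 127 and 129 CPM in DMSO (0.16 ± 0.067, adjusted p = 0.214 in edgeR). Timp3 shares exon sequence with Syn3 on the other strand, which had at most 15 counts in any library.

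Mmp14 was also set against Timp2, its partner at the membrane. Their log2 ratio was -1.14, -1.13 and -1.11 in IPRN 1, 2 and 3, against -1.21, -1.20 and -1.21 in DMSO 1, 2 and 3. The difference of 0.08 kept the groups apart (exact permutation p = 0.1, adjusted 0.114). The log2 ratio of Mmp13 to Timp1 was -13.3 ± 1.28 under IPRN and -8.75 ± 0.20 in DMSO (SD, n = 3 each), a difference of -4.53 with the same p.

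Levels of different genes were compared on the deposited FPKM scale, which is per length. Of the MMPs, Mmp2 was highest at 163 ± 8.22 FPKM under IPRN and 154 ± 11.1 FPKM in DMSO (SD, n = 3 each). Mmp14 followed at 45.5 ± 1.13 and 37.1 ± 0.149 FPKM. Mmp19 came next in DMSO, at 11.2 ± 0.574 FPKM under IPRN against 17.5 ± 0.532 FPKM in DMSO. Mmp11, a secreted enzyme outside the 10 that was named after its values were seen, had 10.1 ± 0.343 FPKM under IPRN and 7.73 ± 1.15 FPKM in DMSO. Under IPRN the range of Mmp11, 9.81 to 10.5 FPKM, lay just below that of Mmp19, 10.8 to 11.8 FPKM. Mmp9 stood at 4.82 ± 0.841 and 4.51 ± 0.0446 FPKM.

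Mmp3, Mmp10 and Mmp13 were rare in both groups. In DMSO they reached 0.415 ± 0.0646, 0.462 ± 0.206 and 0.430 ± 0.0608 FPKM, which do not differ beyond their spread. Together they made up 0.0490% to 0.106% of the FPKM summed over all MMP genes under IPRN and 0.507% to 0.624% in DMSO. Mmp2 made up 67.7% to 70.1% under IPRN and 67.8% to 71.0% in DMSO. The summed FPKM of the 6 secreted members was therefore 187, 178 and 173 in IPRN 1, 2 and 3, against 190, 168 and 175 in DMSO 1, 2 and 3, which overlap. The share of Mmp14 was 19.1% to 19.4% under IPRN and 15.8% to 17.3% in DMSO.

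Timp1 was the highest of the family at 722 ± 154 FPKM under IPRN and 570 ± 6.50 FPKM in DMSO, followed by Timp2 at 152 ± 5.32 and 131 ± 0.796 FPKM and Timp3 at 15.6 ± 1.02 and 13.9 ± 0.388 FPKM. Summed TIMP FPKM over summed MMP FPKM was 4.39, 3.43 and 3.46 in IPRN 1, 2 and 3, against 3.04, 3.30 and 3.26 in DMSO 1, 2 and 3. The IPRN values were all higher, and IPRN 1, with its high Timp1, was the farthest from DMSO.

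**Figure D4:**
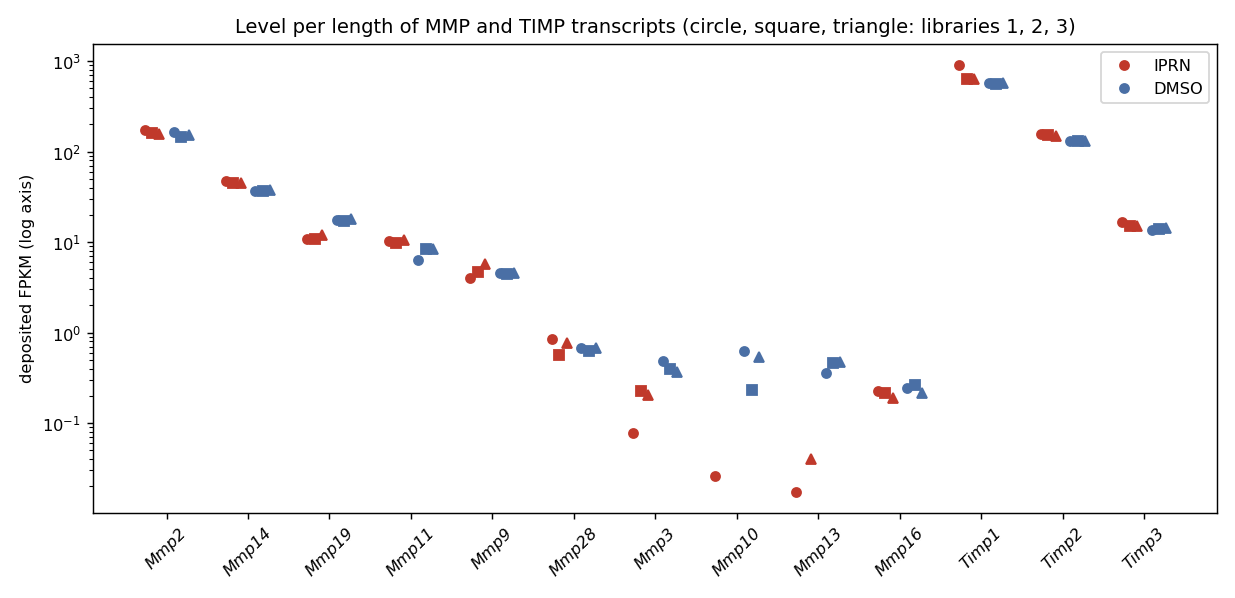
Deposited FPKM (log axis) of 13 MMP and TIMP transcripts in each library, IPRN left of DMSO; libraries at 0 counts cannot be drawn on a log axis and are left out (Mmp10 in IPRN 2 and IPRN 3, Mmp13 in IPRN 2). Timp1, Mmp2 and Timp2 are the highest, and Mmp3, Mmp10 and Mmp13 lie below 1 FPKM in every library.

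Among the other 17 MMP and TIMP genes, 8 could be tested and edgeR called none (unadjusted p under 0.05 for 1 higher and 0 lower, and 1 higher in DESeq2). Over all tested genes, 22.0% had an unadjusted p under 0.05 in edgeR, and DESeq2 called 1908 of 27168 genes. Mmp11 measured 31.9, 30.2 and 32.0 CPM under IPRN and 19.9, 25.7 and 26.3 CPM in DMSO (adjusted p = 0.110 in edgeR). It shares exon sequence with Chchd10 on the other strand. Mmp16, another membrane-bound enzyme, averaged 2.04 ± 0.195 CPM under IPRN and 2.35 ± 0.243 CPM in DMSO (adjusted p = 0.620).

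Genes that activate MMPs or hold them at the cell surface gave 1 rise and 2 falls among 12 tested, with a median log2 fold change of -0.02. The unadjusted p was under 0.05 for 2 higher and 5 lower (22.0% of all tested genes in either direction). DESeq2 called 1 higher and 4 lower (1908 of 27168 genes in either direction). Over all tested genes, edgeR called 2.46% higher and 3.01% lower. The counts of this list and those below are descriptions, as the lists were chosen with earlier results of these data known. Plau, the urokinase gene, whose product generates plasmin and so activates several MMP precursors, fell to 28.5, 33.9 and 32.8 CPM under IPRN, against 54.9, 51.6 and 49.2 CPM in DMSO (adjusted p = 0.00986 in edgeR). Lrp1, an endocytic receptor that clears MMP and TIMP complexes, rose to 2663 ± 87.4 CPM under IPRN, against 2048 ± 52.1 CPM in DMSO (0.00785). Without DMSO 1 or without DMSO 2 neither Plau nor Lrp1 was called (up to 0.0588 for Plau and 0.0569 for Lrp1), and without DMSO 1 and IPRN 3 together the adjusted p was 0.158 for Plau and 0.186 for Lrp1. Plaur, the urokinase receptor gene, also fell, but was called in 1 of the 6 fits with a library left out and not without both libraries (0.273).

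Genes of AP-1 and ETS factors fell in 7 of 14 tested and rose in 0, with a median log2 fold change of -0.41. Over all tested genes, 3.01% were called lower and 2.46% higher. The unadjusted p was under 0.05 for 3 higher and 7 lower in the list (22.0% of all tested genes in either direction). DESeq2 called 0 higher and 7 lower (1908 of 27168 genes in either direction). Those that fell were all AP-1 genes (Fos, Fosb, Fosl1, Fosl2, Jun, Junb and Atf3). Of the other AP-1 genes, Jund (adjusted p = 0.710 in edgeR) and Batf2 (0.896) were tested and did not pass. The 3 higher at an unadjusted p under 0.05 were the ETS genes Etv4, Etv5 and Elk1. The smallest adjusted p was that of Jun, which measured 202.9, 201.5 and 197.0 CPM under IPRN, against 402.7, 392.3 and 403.9 CPM in DMSO (7.91e-05 in edgeR). Jun shares exon sequence with the antisense model Junos, Junb with Prdx2 and Fosl1 with Ccdc85b on the other strand, so their values are uncertain. Jund, Batf2 and Elk1 also overlap other gene models. Of the 7 that fell, Fosl1 and Fosl2 were each called in 1 of the 6 fits with a library left out, and the other 5 in all 6. Without DMSO 1 and IPRN 3 together Fosl1 (0.260) and Fosl2 (0.205) were not called, and the other 5 were.

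Other metalloproteinases split, with 4 rises and 3 falls among 14 tested and a median of 4.22e-05 (2.46% higher and 3.01% lower over all tested genes). The unadjusted p was under 0.05 for 6 higher and 6 lower (22.0% of all tested genes in either direction). DESeq2 called 6 higher and 4 lower (1908 of 27168 genes in either direction). The smallest adjusted p among the falls was that of Adamts1, which cuts proteoglycans, at 30.4 ± 1.04 CPM under IPRN against 69.8 ± 2.48 CPM in DMSO (0.000188). Among the rises it was that of Adam15, a membrane-anchored protease, at 105.5, 92.5 and 92.8 CPM under IPRN against 72.9, 69.8 and 73.5 CPM in DMSO (0.0202). Adam15 overlaps an antisense model, and Adam19 and Adamts9 also overlap models on the other strand. Adam15 was called in 1 of the 6 fits with a library left out, as were Adamts2, Adam19 and Bmp1, the other genes that rose. The other falls were Adamts5, called in all 6, and Adamts9, called in 2. Without DMSO 1 and IPRN 3 together Adamts1 was the one gene of these 7 still called, with adjusted p-values of 0.189 for Adam15, 0.269 for Adam19, 0.256 for Adamts2, 0.278 for Bmp1, 0.111 for Adamts5 and 0.219 for Adamts9.

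Matrix proteins that MMPs are known to cut gave 6 rises and 2 falls among 19 tested, with a median of 0.20. The shares over all tested genes were 2.46% higher and 3.01% lower. The unadjusted p was under 0.05 for 9 higher and 3 lower (22.0% of all tested genes in either direction). DESeq2 called 8 higher and 2 lower (1908 of 27168 genes in either direction). Col5a1, a fibrillar collagen chain, rose to 1304 ± 14.1 CPM under IPRN, against 948 ± 29.6 CPM in DMSO (adjusted p = 0.00300 in edgeR), though its exons overlap other gene models. Lum, a small proteoglycan, fell to 5.23 ± 0.420 CPM under IPRN, against 14.7 ± 0.214 CPM in DMSO (0.000716). Of the 6 rises, Col5a1, Col4a2 and Fbn1 were called in all 6 fits with a library left out, and Fn1, Hspg2 and Col4a1 in 2 each. The exons of Col4a1, Col4a2, Fn1 and Fbn1 also overlap other gene models. Both falls, Lum and Dcn, were called in all 6. Without DMSO 1 and IPRN 3 together the adjusted p in edgeR was 0.144 for Col5a1 and up to 0.212 for the other rises, 0.0769 for Dcn and 0.0408 for Lum.

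**Figure D5:**
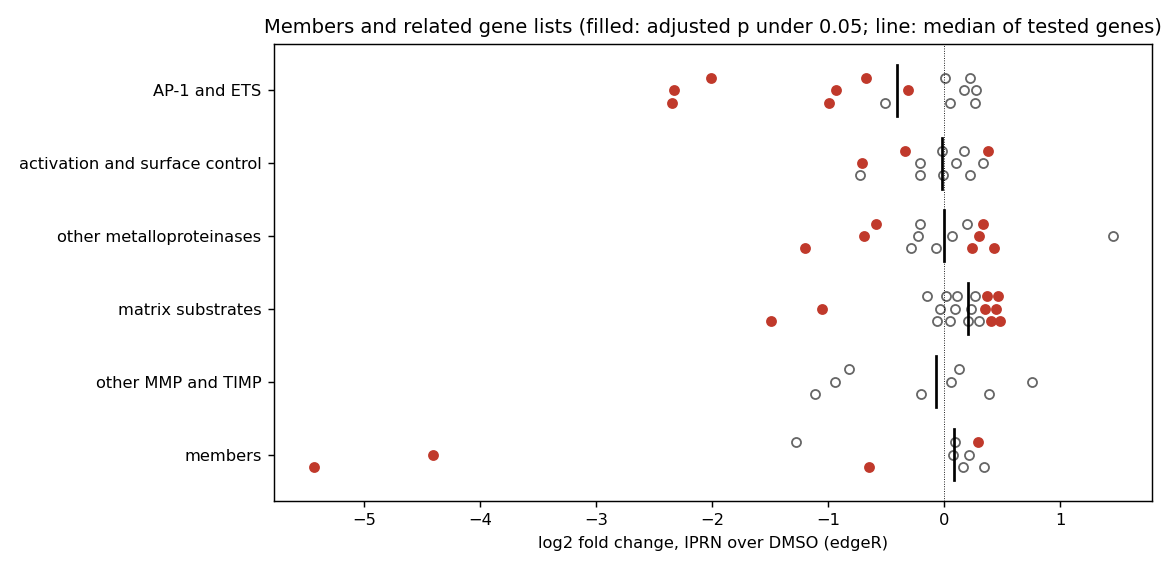
Log2 fold change of IPRN over DMSO for the tested genes of each list, one point per gene, filled where the adjusted p was under 0.05, with a line at the median of the list. The AP-1 and ETS list has 7 filled points, all below 0, and its median is -0.41.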

How the data were processed

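Messenger RNA was captured on oligo(dT) beads and sequenced, with no strand-marking step described, per the labels' protocols, and cutadapt 1.9 was used, per the submitters' processing notes. Which aligner, counter and annotation were used is not given in the sources used here. The authors deposited whole-number counts without normalization, and FPKM scaled by gene length and library size, per the file headers. Of 55141 gene IDs shared with GENCODE M21, 94.2% had the same position on GRCm38. Between 36.3% and 39.1% of counts from 1 to 40 were multiples of 4, against 25% for an even spread, so counting intervals may be too narrow.

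The test on counts was edgeR 4.0.16 under R 4.3.3 (TMM, default filter with a minimum count of 10, quasi-likelihood test on group, two-sided, Benjamini-Hochberg over 17159 genes, threshold 0.05). The code was also run on counts simulated from the fitted means and dispersions. Such counts lack the excess multiples of 4 and any shared differences between libraries, so that run does not show how the test behaves on these data. Standard errors come from the fold change and F. DESeq2 1.42.0 was an alternative. Ratios used exact permutation tests (SciPy 1.17.1). The FPKM values were described, not tested. Ratios were repeated on FPKM with 0.01 added.

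Chi-square per degree of freedom between replicates of a group was 34.0 to 97.6, above sampling noise. The labels do not say that they were separate cultures, so p-values measure only the spread between libraries. Members and lists were chosen with earlier results of these data known. All members were named, and in the other lists those with the smallest adjusted p in each direction got values. Other genes were named after their values were seen.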

Additional observations from a re-analysis of the deposited data

How the results depend on the processing

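Against 938 genes and 4 members called with all libraries, the counts were 621 and 2 without an expression filter. With a model term marking libraries rich in hepatocyte transcripts they were 429 and 2. Without DMSO 1 and IPRN 3 together they were 53 and 0 (edgeR). DESeq2 called 1908 genes and 3 of the 7 members to which it gave an adjusted p. It gave none to Mmp3, Mmp10 and Mmp13. With 1 library left out, 133 to 1047 genes and 1 to 4 members were called. With replicate number as a block, 103 genes and 1 member, Mmp19, were called. Same-numbered libraries did not deviate together (correlations of -0.18, 0.086 and -0.13). The highest correlation between an IPRN and a DMSO library was 0.24, for IPRN 3 with DMSO 1, the libraries low in hepatocyte markers. With so few libraries per group, these correlations cannot show whether equal numbers mark shared cultures. The labels state no pairing, so blocking was not adopted, and the calls depend on that choice. Relative log expression size factors gave 941 genes and 4 members, and a minimum average of 50 counts 1161 and 3, without Mmp3, Mmp10 and Mmp13, which fell below it. Counts divided by 4, chosen after seeing the data, gave 1136 and 4, without Mmp10. Directions of the 10 members did not reverse in the alternatives run, except Mmp9, which ran from -0.0419 (without IPRN 3) to 0.192 with 1 library left out and was -0.0413 without DMSO 1 and IPRN 3. The cause of these changes was not tested. Depth limits Mmp3, Mmp10 and Mmp13, each under 1.5 CPM.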
